A study of Mus musculus with 15 samples.

Results

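The 10 genes Nfe2l2, Keap1, Gclc, Gclm, Gsr, Txnrd1, Srxn1, Prdx1, Hmox1 and Nqo1 encode the transcription factor NRF2, its inhibitor KEAP1 and a core set of NRF2 target enzymes that make glutathione, keep it reduced or handle peroxides, haem and quinones. They were chosen by name and are 10 of the 25639 gene symbols in the count table. Each symbol had 1 row, and all 10 were among the 12401 genes with enough counts to test. Their levels were followed in RAW264.7, a mouse macrophage-like cell line labelled wild type, by sequencing of mRNA. The groups were 10 µg of the peptide LCCL and 24 h, 1 µg and 24 h, 10 µg and 6 h, 1 µg and 6 h, and no treatment. The series title speaks of a candidate peptide drug with an LCCL core that differentiates M1, or classically activated, macrophages. Each of the 5 groups had 3 libraries, 15 in all, and nothing in the labels says that the 3 came from separate cultures. Each gene's spread within groups was estimated once from all 15 libraries. The p-values of that fit refer to this shared spread, whether technical or biological. The doses are given without a volume, no group is labelled as vehicle alone, and the harvest time of the untreated cells is not stated, so that time in culture and treatment cannot be told apart in comparisons with untreated cells. All groups share 1 line and 1 batch label, and every comparison with untreated cells uses the same 3 untreated libraries.

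NRF2 is held in the cytosol by KEAP1, which directs it to a CUL3 ubiquitin ligase for degradation. Electrophiles and oxidants modify cysteines of KEAP1, NRF2 then escapes, enters the nucleus and, paired with a small MAF protein, binds antioxidant response elements in the promoters and enhancers of its targets. In macrophages this programme is known for limiting oxidant damage and for restraining inflammatory cytokine transcription. NRF2 is regulated largely through the stability of the protein, which mRNA counts do not measure.

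Library totals ran from 19085148 to 22434642 counts. Levels are CPM, library-size-normalised read counts, scaled to TMM-adjusted library sizes. Changes are log2 fold changes ± SE from edgeR's quasi-likelihood fit of all 15 libraries, and a gene is said to rise, fall or be called where its p was under 0.05 after Benjamini-Hochberg adjustment across the 12401 genes. Of 9 macrophage markers 8 passed the count filter, led by Lyz2, and the exception was Mertk, at most 0.153 CPM in any library. The summed macrophage markers reached 10915 to 11996 CPM at 10 µg and 24 h, 13229 to 15815 CPM at 1 µg and 24 h, 14711 to 14884 CPM at 10 µg and 6 h, 14585 to 15056 CPM at 1 µg and 6 h and 14663.1 to 15299.7 CPM in untreated cells. Lists for dendritic cells, neutrophils, B and T cells, fibroblasts and epithelium each summed to at most 2.03 CPM in every library, with 1 of 4, 2 of 4, 2 of 4, 2 of 5, 4 of 6 and 3 of 4 of their markers at 0 throughout (among them Ccr7, Ly6g, Cd3e, Col1a1 and Epcam). The first library of the 1 µg 24 h group stood apart, and not for these genes alone. Over all genes, chi-square per degree of freedom for sampling noise was 13.5 and 15.3 between it and replicates 2 and 3. Between replicates 2 and 3 it was 5.71, and 15.3 was the largest of the 15 within-group pairs. The first library was the highest of its 3 for 7 of the 10, the scarce Nqo1 among them, against 35.7% of all tested genes. Its weight on the member changes at 1 µg and 24 h and on the dose comparisons is described below. The partner lists and the search for like genes are given only with it. In bulk RNA, fewer cells that express a gene and less RNA per cell cannot be told apart.

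Promoter sequence was looked at because these genes share a regulator. The RefSeq table of start-site windows (GRCm38.p6, 250 bases before to 50 after the start) held 7 of the 10 genes in 9 windows, and Gclc, Gsr and Hmox1 were not among them. The core of the antioxidant response element, TGACNNNGC on either strand, was found in 5 of the 9 windows, belonging to 5 of the 7 genes, against 12.4% of all 32851 windows in the table. The stretches that hold it are shown 5′ to 3′ on the strand of the gene, with the core in capitals. Nfe2l2 has it at −240 from its start, in chr2:75704875-75704913 on the minus strand. Gclm has it at −134, in chr3:122245403-122245451 on the plus strand. Txnrd1 has it at −92 from the second of its 3 listed starts, in chr10:82859094-82859142 on the plus strand. Srxn1 has it at position 29 after its start, in chr2:152105532-152105573 on the plus strand. Prdx1 has it at −133, in chr4:116685446-116685494 on the plus strand, where it contains TGAGTCA, the binding motif of AP-1. In the last 4 the core lies on the opposite strand and so reads GCNNNGTCA. The windows of Keap1 and Nqo1 held no such run of letters, nor did the other 2 windows of Txnrd1. A match describes the sequence and does not show that a factor binds there.
Nfe2l2: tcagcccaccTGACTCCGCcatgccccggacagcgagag
Gclm: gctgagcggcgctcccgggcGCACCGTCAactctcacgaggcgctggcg
Txnrd1: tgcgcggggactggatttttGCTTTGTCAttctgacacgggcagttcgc
Srxn1: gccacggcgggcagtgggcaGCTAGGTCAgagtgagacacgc
Prdx1: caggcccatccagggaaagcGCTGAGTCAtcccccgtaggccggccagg

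Nfe2l2, the gene of NRF2 itself, was called in none of the 9 comparisons. Its level was 289.8, 286 and 292 CPM at 10 µg and 24 h, 272, 292 and 283 CPM at 1 µg and 24 h, and 284, 279 and 289 CPM in untreated cells. The 6 libraries taken at 6 h lay at 274 to 292 CPM, and each treated group overlapped the untreated range. Against untreated cells the log2 difference was 0.03 ± 0.04 at 10 µg and 24 h (95% interval -0.06 to 0.12, adjusted p = 0.618) and -0.01 ± 0.04 at 1 µg and 24 h (95% interval -0.10 to 0.08, adjusted p = 0.883). With libraries scaled to their totals alone, a setting added after seeing the data that moves the median of all genes by 0.10 at 10 µg and 0.11 at 1 µg, these differences were 0.11 (adjusted p = 0.0153) and 0.09 (adjusted p = 0.0485), so that it was called higher there by about the size of that shift.

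Keap1, the inhibitor, fell at 24 h at both doses. It stood at 84.3, 71.3 and 80.2 CPM at 10 µg and 24 h and at 89.8, 99.2 and 93.1 CPM at 1 µg and 24 h, against 129, 127 and 125 CPM in untreated cells. These 3 groups did not overlap and were ordered by dose. The log2 change from untreated cells was -0.69 ± 0.05 at 10 µg (adjusted p = 1.57e-11), which left 62.0% of the untreated level, and -0.43 ± 0.05 at 1 µg (adjusted p = 1.15e-07), which left 74.1%. At 6 h Keap1 was at 118, 116 and 116 CPM with 10 µg and at 121, 119 and 118 CPM with 1 µg, every library below the lowest untreated one, yet neither difference passed the test (adjusted p = 0.217 at 10 µg and 1 at 1 µg). In a fit of the 10 µg 6 h and untreated libraries alone the first of these did pass (log2 -0.12, adjusted p = 0.0484). Keap1 lies over an antisense transcript, Gm16754, in the GENCODE vM21 annotation, and as the strand setting of the counting is not given in the sources used here, reads of the pair cannot be told apart.

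**Figure D1:**
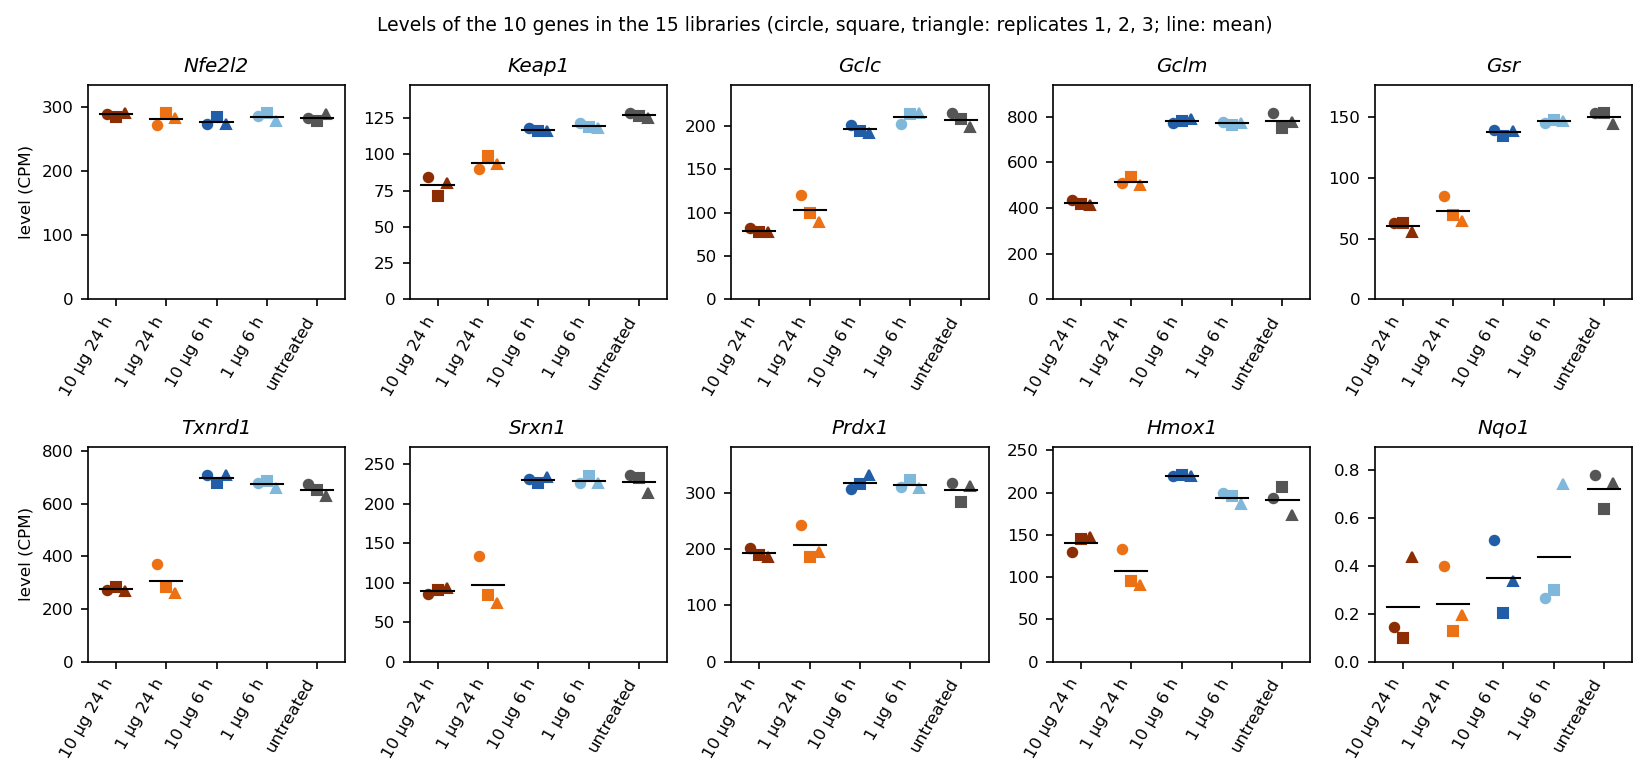
Level in CPM (vertical axes, each from 0) of the 10 genes in the 15 libraries, by group, with 1 point per library and a line at the group mean. Nfe2l2 stays at 272 to 292 CPM throughout, whereas the other genes, apart from the scarce Nqo1, have 24 h libraries below every 6 h and untreated library.

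The genes of glutathione synthesis and recycling fell at 24 h at both doses, with larger fitted changes for Gclc and Gsr than for Gclm. Gclc, the catalytic subunit of glutamate-cysteine ligase, which carries out the rate-limiting step of glutathione synthesis, was at 82.5, 77.2 and 78.1 CPM at 10 µg and 24 h and at 120.2, 99.4 and 88.6 CPM at 1 µg and 24 h, against 215, 208 and 198 CPM in untreated cells. All 24 h libraries lay far below all untreated ones, and within the 1 µg group the first library was the highest. The log2 change was -1.38 ± 0.08 at 10 µg (adjusted p = 2.16e-12), to 38.3% of the untreated level, and -1.01 ± 0.07 at 1 µg (adjusted p = 5.18e-10), to 49.7%. At 6 h its libraries lay at 202, 194 and 192 CPM with 10 µg and 203, 214 and 215 CPM with 1 µg, a range that overlapped that of untreated cells.

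Gclm, the modifier subunit that raises the affinity of the ligase for glutamate, was at 436, 417 and 413 CPM at 10 µg and 24 h and at 511, 534 and 501 CPM at 1 µg and 24 h, against 818, 749.9 and 775 CPM in untreated cells. The 3 groups did not overlap and were ordered by dose. The log2 change was -0.89 ± 0.05 at 10 µg (adjusted p = 1.12e-14) and -0.60 ± 0.05 at 1 µg (adjusted p = 4.98e-11), to 54.1% and 66.0% of the untreated level in that order. At 6 h the 6 libraries of both doses lay at 763 to 788 CPM, within the untreated range. In the same annotation Gclm overlaps Gm17494 on the opposite strand and Gm6061 on its own, so that its counts may include theirs.

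Since both subunits are needed for full ligase activity, the ratio of their levels was taken in each library. The log2 ratio of Gclc to Gclm was -2.41 ± 0.02 at 10 µg and 24 h, -2.34 ± 0.22 at 1 µg and 24 h, -1.99 ± 0.05 at 10 µg and 6 h, -1.87 ± 0.06 at 1 µg and 6 h and -1.92 ± 0.06 in untreated cells (SD, n = 3 each). At 24 h every library of both doses had a lower ratio than every untreated library. The difference from untreated cells was -0.50 at 10 µg and 24 h and -0.42 at 1 µg and 24 h (two-sided exact permutation test, p = 0.1 for each, the smallest p that 3 against 3 can give). At 6 h it was -0.08 at 10 µg (p = 0.2) and 0.04 at 1 µg (p = 0.4, same exact test). Adjusted over these 4 ratio comparisons the exact permutation p-values were 0.2, 0.2, 0.267 and 0.4 in that order.

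Gsr, glutathione reductase, which returns oxidised glutathione to its reduced form with NADPH, was at 62.7, 62.7 and 55.3 CPM at 10 µg and 24 h and at 85.0, 69.5 and 65.0 CPM at 1 µg and 24 h, against 154, 153 and 145 CPM in untreated cells. Neither 24 h group came near the untreated range, and the 10 µg libraries were all below the 1 µg libraries. It fell by 1.32 ± 0.07 on the log2 scale at 10 µg (adjusted p = 3.41e-13) and by 1.04 ± 0.07 at 1 µg (adjusted p = 4.11e-11), to 40.0% and 48.6% of the untreated level in that order. At 6 h it was at 139.5, 135 and 139 CPM with 10 µg, all below the untreated libraries without passing the test (adjusted p = 0.324; 0.0307 in a fit of those 2 groups alone), and at 145, 148 and 147 CPM with 1 µg.

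The 3 genes of the thioredoxin and peroxiredoxin branch fell at 24 h at both doses. Txnrd1, the cytosolic thioredoxin reductase, was at 273, 283 and 270.0 CPM at 10 µg and 24 h and at 372, 283 and 261 CPM at 1 µg and 24 h, against 675, 654 and 630.0 CPM in untreated cells. The 24 h and untreated libraries were far apart, and the ranges of the 2 doses overlapped. The log2 change was -1.25 ± 0.09 at 10 µg (adjusted p = 2.24e-09) and -1.10 ± 0.09 at 1 µg (adjusted p = 2.15e-08). At 6 h it was at 711, 679 and 709 CPM with 10 µg, all above the untreated libraries without passing the test (adjusted p = 0.614), and at 678, 686 and 659.6 CPM with 1 µg, overlapping untreated cells.

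Srxn1, sulfiredoxin, which repairs over-oxidised peroxiredoxins, was at 85.7, 90.9 and 93.4 CPM at 10 µg and 24 h and at 134, 84.2 and 74.0 CPM at 1 µg and 24 h, against 237, 233 and 214 CPM in untreated cells. The first 1 µg library held 1.70 times the mean of the other 2 of its group, the largest such ratio among the members above 1 CPM, and still lay below every untreated library. The log2 change was -1.34 ± 0.17 at 10 µg (adjusted p = 2.91e-05) and -1.22 ± 0.17 at 1 µg (adjusted p = 8e-05). Without that library the 1 µg change was -1.53. At 6 h Srxn1 lay at 226 to 236 CPM over both doses, within the untreated range.

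Prdx1, a peroxiredoxin that reduces hydrogen peroxide with electrons from thioredoxin, was at 202, 189 and 186 CPM at 10 µg and 24 h and at 242, 186 and 194 CPM at 1 µg and 24 h, against 317, 284 and 312 CPM in untreated cells. It kept a larger part of its untreated level than Txnrd1 or Srxn1, 63.3% at 10 µg and 68.2% at 1 µg, against 42.2% and 46.8% for Txnrd1 and 39.5% and 42.9% for Srxn1. The log2 change was -0.66 ± 0.07 at 10 µg (adjusted p = 2.18e-07) and -0.55 ± 0.07 at 1 µg (adjusted p = 3.42e-06). The 6 h libraries, at 306 to 332 CPM, overlapped untreated cells. Prdx1 has processed pseudogenes that match it over 597 bases, Gm21399 at 98.3% and Gm7204 at 97.5% identity, so its counts are uncertain by whatever share of reads was assigned to them.

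Hmox1, haem oxygenase, which breaks haem down to biliverdin, iron and carbon monoxide, was the member whose fall was smaller at the higher dose. It was at 130.0, 145 and 148 CPM at 10 µg and 24 h and at 134, 95.6 and 91.1 CPM at 1 µg and 24 h, against 194, 206 and 173 CPM in untreated cells. Both 24 h groups lay below the untreated range, and the first 1 µg library, 1.43 times the mean of the other 2, fell inside the 10 µg range. The log2 change was -0.44 ± 0.12 at 10 µg (adjusted p = 0.00579), to 73.7% of the untreated level, and -0.84 ± 0.12 at 1 µg (adjusted p = 7.07e-05), to 55.9%. At 6 h with 10 µg it was at 219, 221 and 219.6 CPM, above all 3 untreated libraries and all 3 libraries of 1 µg, which held 199, 196 and 187 CPM. The 10 µg 6 h difference from untreated cells, log2 0.20 ± 0.12, did not pass the test (adjusted p = 0.416), but did in a fit of those 2 groups alone (adjusted p = 0.00886).

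Nqo1, a quinone reductase often used as an index of NRF2 activity, was near the limit of detection in any group. Its libraries held 3, 2 and 9 counts at 10 µg and 24 h, 9, 3 and 4 at 1 µg and 24 h, 11, 4 and 7 at 10 µg and 6 h, 5, 6 and 14 at 1 µg and 6 h, and 16, 14 and 15 in untreated cells. A level of 3 counts corresponds to 0.13 to 0.16 CPM per library. The untreated libraries were the highest except that 1 library of 1 µg at 6 h reached the same count as 1 of them. It passed the count filter through the untreated cells, where all 3 libraries had at least 10 counts, against 0 at 10 µg and 24 h, 0 at 1 µg and 24 h, 1 at 10 µg and 6 h and 1 at 1 µg and 6 h, and so had to be lower elsewhere. Its fitted log2 changes were -1.63 ± 0.53 at 10 µg and 24 h (adjusted p = 0.00825) and -1.55 ± 0.52 at 1 µg and 24 h (adjusted p = 0.0114). Leaving out 1 library ended each call (adjusted p = 0.0504 without the second 10 µg 24 h library and 0.0632 without the second 1 µg 24 h library).

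Counted together, 9 of the 10 genes were lower at 10 µg and 24 h than in untreated cells, and the exception was Nfe2l2. At this contrast 34.9% of all tested genes were called lower and 35.4% higher. The median log2 change was -0.89 over the 9 members other than Nqo1, which the count filter held to a fall, and 0.01 over all tested genes. At 1 µg and 24 h the same 9 genes were lower, where 31% of all tested genes were called lower and 30.8% higher, with medians of -0.84 and 0.01. Leaving aside Nqo1, 8 of 9 were lower at each dose. Without the first 1 µg library the 1 µg 24 h changes were larger for 6 genes, -1.53 for Srxn1, -1.26 for Txnrd1, -1.16 for Gsr, -1.14 for Gclc, -1.03 for Hmox1 and -0.68 for Prdx1, all still called lower. At 10 µg and 24 h 2.15% of tested genes had a lower log2 change than Gclc and 2.35% a lower one than Srxn1, whereas 21.1% had a lower one than Hmox1. With libraries scaled to their totals alone, 41.3% of the called genes were lower at 10 µg and 24 h and 36.8% at 1 µg and 24 h, against 49.7% and 50.2% in the TMM fit, and the same 9 members were called lower, with Nfe2l2 called higher. The summed macrophage markers were also lower at 10 µg and 24 h than in untreated cells, by the values given above, and their part in the falls was not tested. Lyz2, at 9295 CPM on average over all libraries, makes up most of that sum, and single markers are not given by group here. At 1 µg and 24 h the summed markers overlapped untreated cells.

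**Figure D2:**
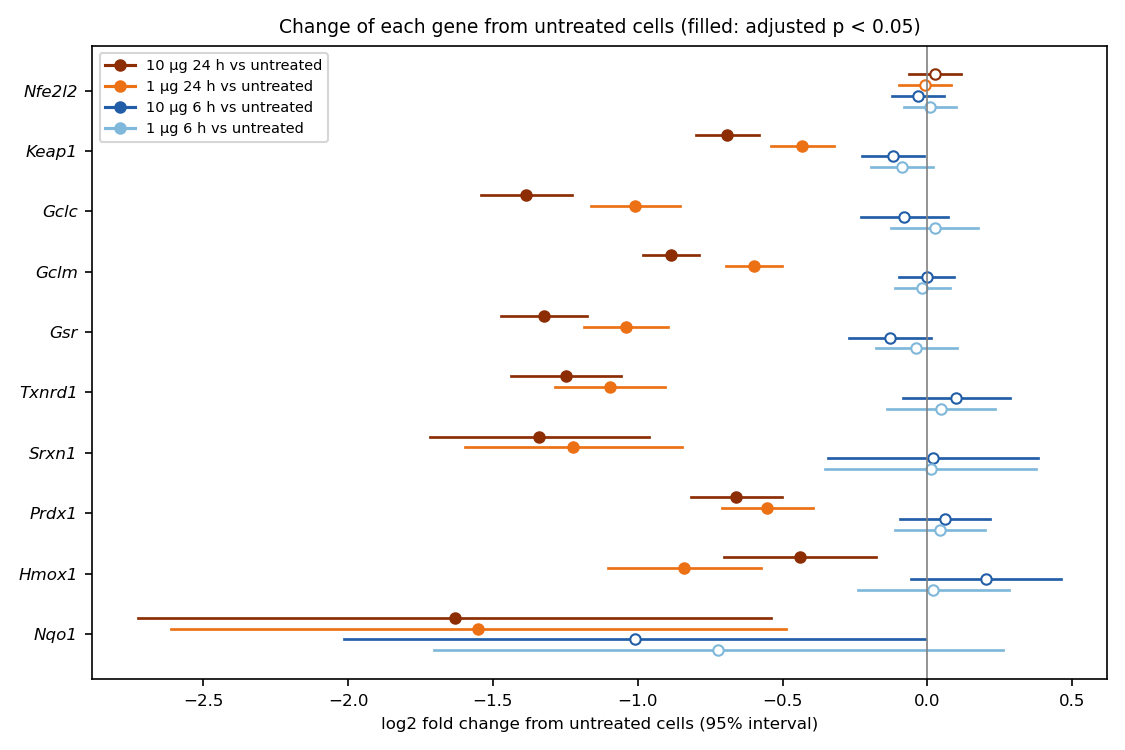
Log2 fold change from untreated cells (horizontal axis) with its 95% interval for each gene in the 4 treated groups, filled where the adjusted p was under 0.05. At 24 h 9 genes are filled and to the left of 0 at both doses, and at 6 h no gene is filled. At 10 µg and 24 h they run from -1.38 for Gclc to -0.44 for Hmox1. This leaves aside the scarce Nqo1, at -1.63, which the count filter held to a fall.

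**Figure D3:**
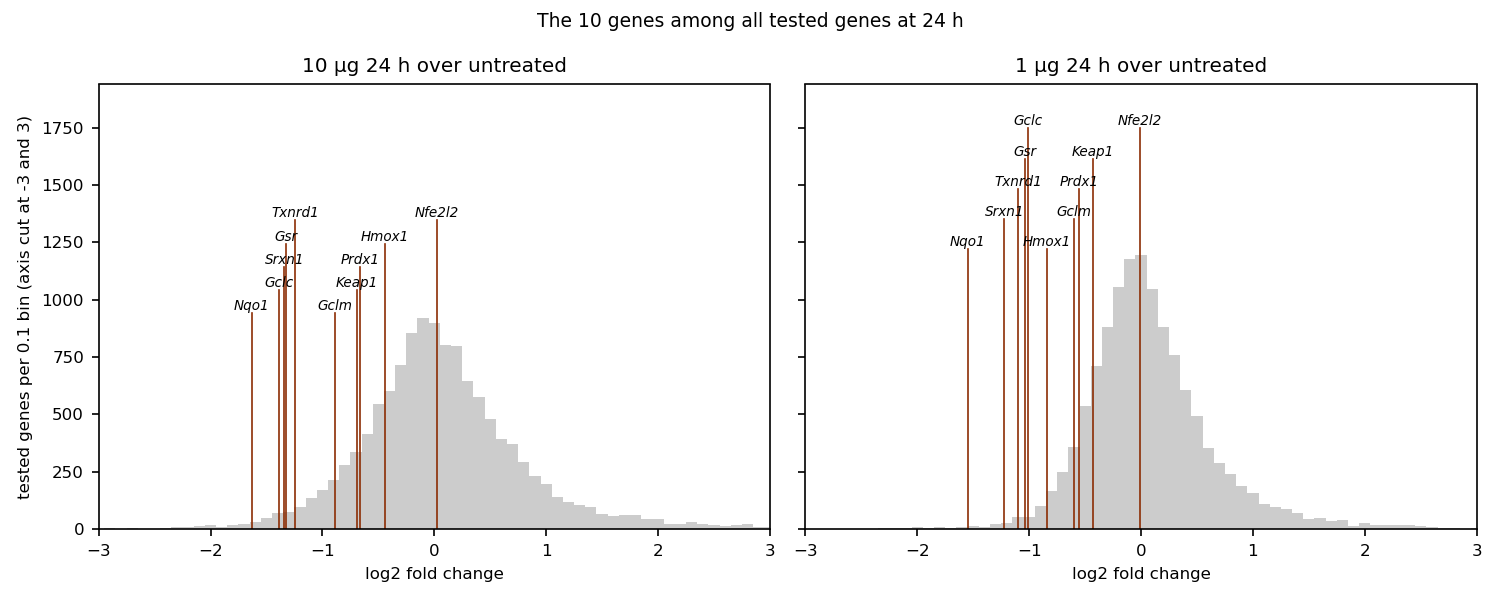
Number of tested genes (vertical axis) by log2 fold change from untreated cells in bins of 0.1, cut at -3 and 3, at 10 µg and 24 h (left) and 1 µg and 24 h (right), with a line at each of the 10 genes. The members lie in the left part of both distributions, median -0.89 at 10 µg and -0.84 at 1 µg without Nqo1, and Nfe2l2 lies at the centre.

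At 6 h none of the 10 genes was called in the fit of all 15 libraries. With 10 µg edgeR called 5.95% of all tested genes in either direction and 0 members, and 2 members, Keap1 and Nqo1, had an unadjusted p under 0.05, against 2288 of all genes. With 1 µg it called 0% of genes and 0 members, while 337 genes and 0 members had an unadjusted p under 0.05. DESeq2 and limma-voom also called 0 members at either dose. In a fit of the 10 µg 6 h and untreated libraries alone, 3 members were called, where 1487 genes were called in all. They were Keap1 and Gsr, lower (adjusted p = 0.0484 and 0.0307), and Hmox1, higher (adjusted p = 0.00886). The same kind of fit at 1 µg called 0 members. The 95% interval of the 10 µg 6 h log2 change was -0.10 to 0.09 for Gclm, -0.09 to 0.28 for Txnrd1 and -0.34 to 0.38 for Srxn1, and widest for the scarce Nqo1, at -2.01 to -0.01. These intervals use the spread shared by all 15 libraries. For Srxn1 the SD was 33.2% of the mean at 1 µg and 24 h. It was 1.75% at 10 µg and 6 h and 5.45% in untreated cells.

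Time was then compared at a fixed dose, which removes the untreated cells from the contrast but shares the 24 h libraries with the comparisons above. No untreated cells are labelled as taken at 6 h or 24 h. Time in culture and length of treatment therefore cannot be told apart here either. At 10 µg, 24 h against 6 h, 8 of the 10 genes were lower, all except Nfe2l2 and Nqo1, where 35.2% of all tested genes were lower. The changes ran from -1.36 for Srxn1 and -1.35 for Txnrd1 to -0.57 for Keap1. At 1 µg the same 8 were lower, where 30.5% of all tested genes were, from -1.23 for Srxn1 to -0.35 for Keap1. Without the first 1 µg 24 h library the same 8 were still called lower, from -1.54 for Srxn1 to -0.31 for Keap1. Nfe2l2 differed by 0.06 ± 0.04 at 10 µg (adjusted p = 0.233) and by -0.02 ± 0.04 at 1 µg (adjusted p = 0.758). With libraries scaled to their totals alone 40.8% of called genes were lower at 10 µg and 36.3% at 1 µg, against 50.8% and 50.1% in the TMM fit, and Nfe2l2 was called higher at 10 µg (log2 0.16, adjusted p = 0.00133).

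Per kilobase of annotated exon, the order of the 10 transcripts differed at 24 h. In CPM per kilobase, the 10 µg 24 h levels were 80.4 ± 5.44 for Hmox1, 76.1 ± 0.805 for Nfe2l2, 67.1 ± 1.94 for Gclm, 63.3 ± 2.77 for Prdx1, 38.8 ± 0.971 for Txnrd1, 31.9 ± 1.41 for Srxn1, 21.9 ± 1.54 for Gsr, 21.1 ± 0.76 for Gclc, 16.7 ± 1.41 for Keap1 and 0.146 ± 0.118 for Nqo1 (SD, n = 3). Hmox1 and Nfe2l2 overlapped in that group, as did Gclm and Prdx1, and Gsr and Gclc. At 1 µg and 24 h the order was Gclm, Nfe2l2, Prdx1, Hmox1, Txnrd1, Srxn1, Gclc, Gsr, Keap1 and Nqo1, with 81.9 ± 2.75 for Gclm, 74.4 ± 2.67 for Nfe2l2, 68.2 (61.0 to 79.7) for Prdx1 and 61.0 ± 13.4 for Hmox1. In that group Gclm did not overlap Nfe2l2 but did overlap Prdx1, and from Nfe2l2 down to Gsr each gene overlapped the next, so that their order is not firm. At 10 µg and 6 h Hmox1 led with 126 ± 0.564 and Gclm followed with 124 ± 1.21, whose ranges met, and at 1 µg and 6 h Gclm led with 123 ± 1.09 and Hmox1 followed with 111 ± 3.73, whose ranges did not. In untreated cells the levels were 124 ± 5.44 for Gclm, 109 ± 9.56 for Hmox1, 100.1 ± 5.92 for Prdx1, 92.2 ± 3.16 for Txnrd1, 80.8 ± 4.40 for Srxn1, 74.8 ± 1.3 for Nfe2l2, 55.0 ± 2.19 for Gclc, 54.7 ± 1.86 for Gsr, 27 ± 0.418 for Keap1 and 0.465 ± 0.0476 for Nqo1. There, Hmox1 overlapped Prdx1, Prdx1 overlapped Txnrd1, Srxn1 overlapped Nfe2l2 and Gclc overlapped Gsr, so those neighbours have no firm order. Nfe2l2 ranked 2 of 10 at both doses at 24 h and 6 of 10 in the other 3 groups. The lengths are unions of exons in GENCODE vM21 (GRCm38), which may differ from the authors' annotation.

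The doses were compared directly at 24 h. Keap1, Gclc, Gclm and Gsr were lower at 10 µg than at 1 µg, by a log2 difference of -0.26 ± 0.05 (adjusted p = 0.000448), -0.37 ± 0.08 (adjusted p = 0.000604), -0.29 ± 0.05 (adjusted p = 2.39e-05) and -0.28 ± 0.07 (adjusted p = 0.00406). Hmox1 was higher at 10 µg, by 0.40 ± 0.12 (adjusted p = 0.0237). So 4 members were lower and 1 higher, where 19.3% of all tested genes were lower and 16% higher. For Txnrd1, Srxn1 and Prdx1 the differences of -0.15 ± 0.09, -0.12 ± 0.17 and -0.11 ± 0.08 did not pass, with 95% intervals of -0.34 to 0.04, -0.50 to 0.27 and -0.27 to 0.05, and for Nfe2l2 the interval was -0.06 to 0.12.

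The first 1 µg 24 h library weighs on these contrasts. Without it, Gclc was lower at 10 µg by 0.25 and Gsr by 0.16, both still called, and Hmox1 was higher by 0.59 (adjusted p = 2.12e-08). Srxn1 then turned, to 0.18 higher at 10 µg (adjusted p = 0.0141), and Txnrd1 and Prdx1 came to 0.01 and 0.02 (adjusted p = 0.858 and 0.83). Without replicate 3 of 1 µg instead, Txnrd1 was called lower at 10 µg (log2 -0.25, adjusted p = 0.00978). The Hmox1 call was lost without any 1 of 4 other libraries (adjusted p = 0.0904 and 0.0691 without replicate 2 or 3 of 1 µg, 0.077 and 0.0755 without replicate 2 or 3 of 10 µg) and in a fit of the 2 groups alone (adjusted p = 0.101), and the Gsr call was lost in that last fit (adjusted p = 0.0615). Keap1, Gclc and Gclm were called lower at 10 µg in all of these settings.

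**Figure D4:**
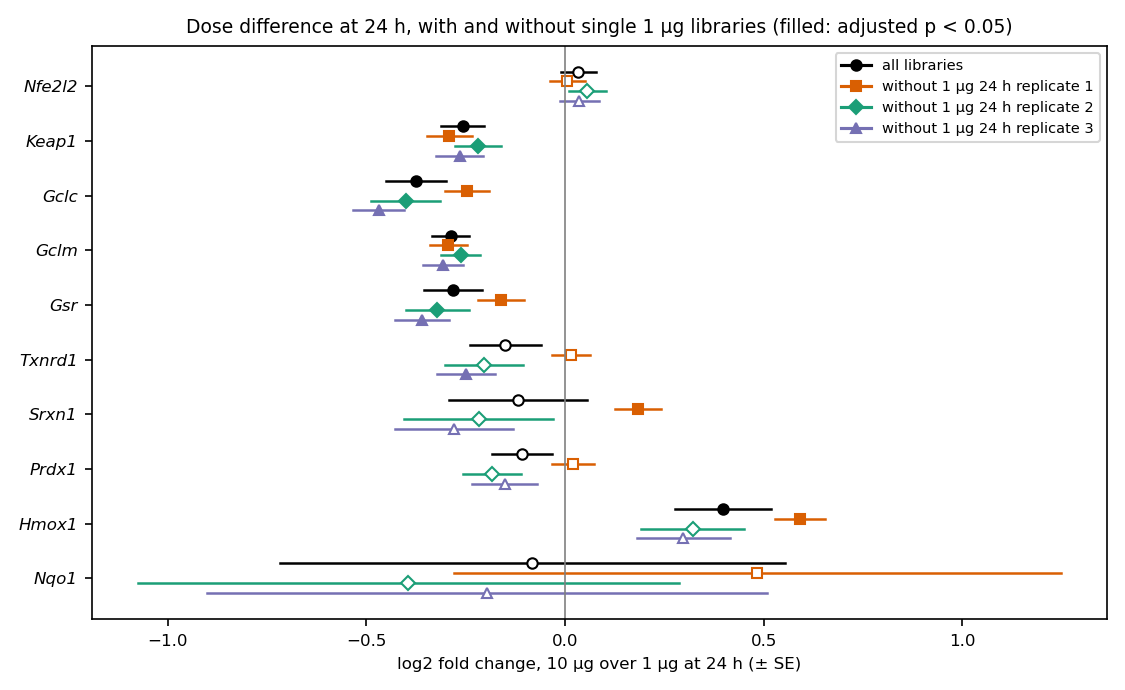
Log2 fold change of 10 µg over 1 µg at 24 h (horizontal axis, ± SE) for each gene with all libraries and without each 1 µg library in turn, filled where the adjusted p was under 0.05. Keap1, Gclc, Gclm and Gsr stay left of 0 and filled, and Srxn1 moves to 0.18 without the first 1 µg library.

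At 6 h the dose comparison called 0 members by edgeR, DESeq2 and limma-voom, where edgeR called 2.35% of all tested genes in either direction, and 0 members had an unadjusted p under 0.05. Hmox1 had the largest difference among the members above 1 CPM, 0.18 ± 0.12 (adjusted p = 0.608), and was called in a fit of the 2 groups alone (adjusted p = 0.000425). The test of whether the dose difference itself changed between 24 h and 6 h called Gclm (log2 -0.30 ± 0.07, adjusted p = 0.00185) and Keap1 (log2 -0.23 ± 0.08, adjusted p = 0.0352), 2 of the 10 genes, where 18.6% of all tested genes were called. Gclm was called without each library in turn; the Keap1 call was lost without any 1 of 7 libraries (adjusted p up to 0.12). Without the first 1 µg 24 h library Hmox1 was called (log2 0.41, adjusted p = 0.00065), and without the third Gclc, Gsr and Txnrd1 were.

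The wider pathway was described with 130 further genes in 8 lists, of which 109 could be tested. At 10 µg and 24 h 37 were higher and 48 lower than in untreated cells, which is 33.9% and 44% of them, against 35.4% and 34.9% of all tested genes, and their median log2 change was -0.04. At 1 µg and 24 h 31 were higher and 46 lower, 28.4% and 42.2%, against 30.8% and 31% of all tested genes. These all-gene shares are the background for the counts of each list, and lists with shares near them, such as that of glutathione synthesis, transport and use, do not stand out by their counts. The counts below are for 10 µg and 24 h against untreated cells unless stated, and the levels are means ± SD of 3 libraries.

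Genes that control NRF2 included 8 higher and 3 lower of 15 tested. Sqstm1, which encodes the KEAP1-sequestering autophagy receptor p62, averaged 1626 ± 132 CPM at 10 µg and 24 h, 959 ± 96.8 CPM at 1 µg and 24 h and 728 ± 28.9 CPM in untreated cells, log2 1.16 ± 0.07 at 10 µg (adjusted p = 8.79e-14). Nfe2l1, an NRF2 relative that governs proteasome genes, averaged 698 ± 49.4 CPM at 10 µg and 24 h against 290.4 ± 9.86 CPM in untreated cells, log2 1.27 ± 0.08 (adjusted p = 2.14e-11). Bach2, a repressor related to BACH1, the competitor of NRF2 at haem-responsive elements, averaged 10.0 ± 2.48 CPM at 10 µg and 24 h against 0.415 ± 0.0362 CPM in untreated cells, log2 4.57 ± 0.28 (adjusted p = 2.32e-13). The untreated level of Bach2 was near the limit of detection, and it may have passed the count filter only through the groups where it was high. Gsk3b, a kinase that marks NRF2 for degradation apart from KEAP1, rose by 0.38 ± 0.05 (adjusted p = 4.84e-07). At 1 µg and 24 h 6 of the 15 were higher and 4 lower.

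Genes of glutathione synthesis, transport and use were divided, 6 higher and 8 lower of 19. Chac1, which breaks glutathione down, averaged 40.4 ± 2.64 CPM at 10 µg and 24 h and 34.1 ± 2.99 CPM at 1 µg and 24 h, against 5.01 ± 0.445 CPM in untreated cells, log2 3.01 ± 0.10 at 10 µg (adjusted p = 1.69e-18). Slc3a2, the heavy chain shared by the cystine importer, rose by 0.94 ± 0.05 (adjusted p = 1.17e-14), whereas its partner Slc7a11, a known NRF2 target, differed by -0.02 ± 0.24 (95% interval -0.55 to 0.50, adjusted p = 0.934). Glrx5, a mitochondrial glutaredoxin, fell by 0.69 ± 0.07 (adjusted p = 2.65e-09) and Glo1, glyoxalase, by 0.54 ± 0.06 (adjusted p = 3.75e-08). Gss, the enzyme of the second step of glutathione synthesis, averaged 3.56 CPM at 10 µg and 24 h against 8.28 CPM in untreated cells and fell by 1.22 ± 0.17 (adjusted p = 3.76e-07). Slc7a11 and Gss were named after their values were seen. The lower dose at 24 h had 5 higher and 7 lower.

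Among glutathione S-transferases 7 were higher and 1 lower of 10 tested, with a median log2 change of 0.59. Gstm1 rose by 0.70 ± 0.11 (adjusted p = 5.14e-06), Gstt3 by 0.82 ± 0.14 (adjusted p = 8.51e-06) and Gstt2 by 0.73 ± 0.13 (adjusted p = 2.9e-05), all enzymes that conjugate glutathione to electrophiles. Gstcd, a gene with a transferase-like domain, fell by 0.89 ± 0.08 (adjusted p = 1.22e-10). The other 9 listed transferases were too scarce to test. With 1 µg at 24 h there were 5 higher and 1 lower. Near-identical members of the Gstm and Gstp families may share reads, so single values there are uncertain.

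Of thioredoxin, peroxiredoxin and sulfoxide repair genes 4 were higher and 8 lower of 17. Txn1, the thioredoxin that Txnrd1 reduces, averaged 54.3 ± 3.40 CPM at 10 µg and 24 h against 82.0 ± 5.14 CPM in untreated cells and fell by 0.60 ± 0.06 (adjusted p = 3.63e-09). Txnip, the inhibitor of thioredoxin, averaged 886 ± 84.9 CPM at 10 µg and 24 h against 354 ± 12.9 CPM in untreated cells and rose by 1.32 ± 0.06 (adjusted p = 9.84e-16). Sesn2, a stress-inducible sestrin, rose by 2.79 ± 0.07 (adjusted p = 4.44e-20), and Prdx6 fell by 0.37 ± 0.05 (adjusted p = 3.14e-07). The lower dose at 24 h had 3 higher and 8 lower.

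NADPH is the reductant of Gsr, Txnrd1 and Nqo1, and of the 13 tested genes that supply it 10 were lower and 0 higher, with a median log2 change of -0.58; the 3 not called were Rpe, Idh1 and Nadk2. G6pdx, which starts the oxidative pentose phosphate pathway, averaged 142 ± 5.79 CPM at 10 µg and 24 h and 189 ± 28.9 CPM at 1 µg and 24 h, against 343 ± 14.6 CPM in untreated cells, log2 -1.27 ± 0.07 at 10 µg (adjusted p = 4.01e-12). Pgd, the next dehydrogenase of that pathway, fell by 1.23 ± 0.08 (adjusted p = 2.61e-11). Taldo1 and Tkt, of its non-oxidative arm, fell by 0.93 ± 0.05 (adjusted p = 2.4e-14) and 0.58 ± 0.05 (adjusted p = 3.51e-10). With 1 µg at 24 h there were 8 lower and 1 higher.

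Among haem and iron genes 2 were higher and 6 lower of 10. Ftl1, the ferritin light chain, averaged 2771 ± 39.1 CPM at 10 µg and 24 h and 2339 ± 328 CPM at 1 µg and 24 h, against 4136 ± 298 CPM in untreated cells, log2 -0.58 ± 0.07 at 10 µg (adjusted p = 1.82e-07). Fth1, the heavy chain, was instead higher by 0.25 ± 0.05 at 10 µg (adjusted p = 0.000143) and lower by 0.28 ± 0.05 at 1 µg (adjusted p = 3.86e-05), log2 0.53 ± 0.05 between the doses (adjusted p = 1.19e-08). The changes of Fth1 from untreated cells were named after their values were seen. Slc48a1, a haem transporter, fell by 0.72 ± 0.08 (adjusted p = 1.11e-07) and Alas1, which starts haem synthesis, by 0.46 ± 0.06 (adjusted p = 1.01e-07), while Ncoa4, the receptor for ferritin autophagy, rose by 0.41 ± 0.05 (adjusted p = 6.02e-08). The lower dose at 24 h had 1 higher and 7 lower. Ferritin genes have many processed pseudogenes, and reads may be split among them.

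Detoxification enzymes were divided, 5 higher and 7 lower of 15. Akr1b8, an aldo-keto reductase, averaged 62.3 ± 3.08 CPM at 10 µg and 24 h against 167 ± 10.6 CPM in untreated cells, log2 -1.42 ± 0.12 (adjusted p = 2.49e-07). Akr1b3 fell by 0.71 ± 0.09 (adjusted p = 1.67e-07) and Ugdh, which makes the donor for glucuronidation, by 0.40 ± 0.05 (adjusted p = 1.12e-07), and Aldh3b1 rose by 0.43 ± 0.05 (adjusted p = 7.36e-08). The lower dose at 24 h had 5 higher and 7 lower. Superoxide and hydrogen peroxide genes were 5 higher and 5 lower of 10. Sod1, the cytosolic superoxide dismutase, fell by 0.67 ± 0.06 (adjusted p = 1.08e-10), whereas Ncf4, a cytosolic subunit of the phagocyte NADPH oxidase, rose by 0.57 ± 0.06 (adjusted p = 1.11e-09). Hvcn1, a proton channel that sustains that oxidase, averaged 8.11 ± 1.41 CPM at 10 µg and 24 h against 1.17 ± 0.363 CPM in untreated cells and rose by 2.79 ± 0.22 (adjusted p = 3.1e-11). The lower dose at 24 h had 5 higher and 4 lower.

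**Figure D5:**
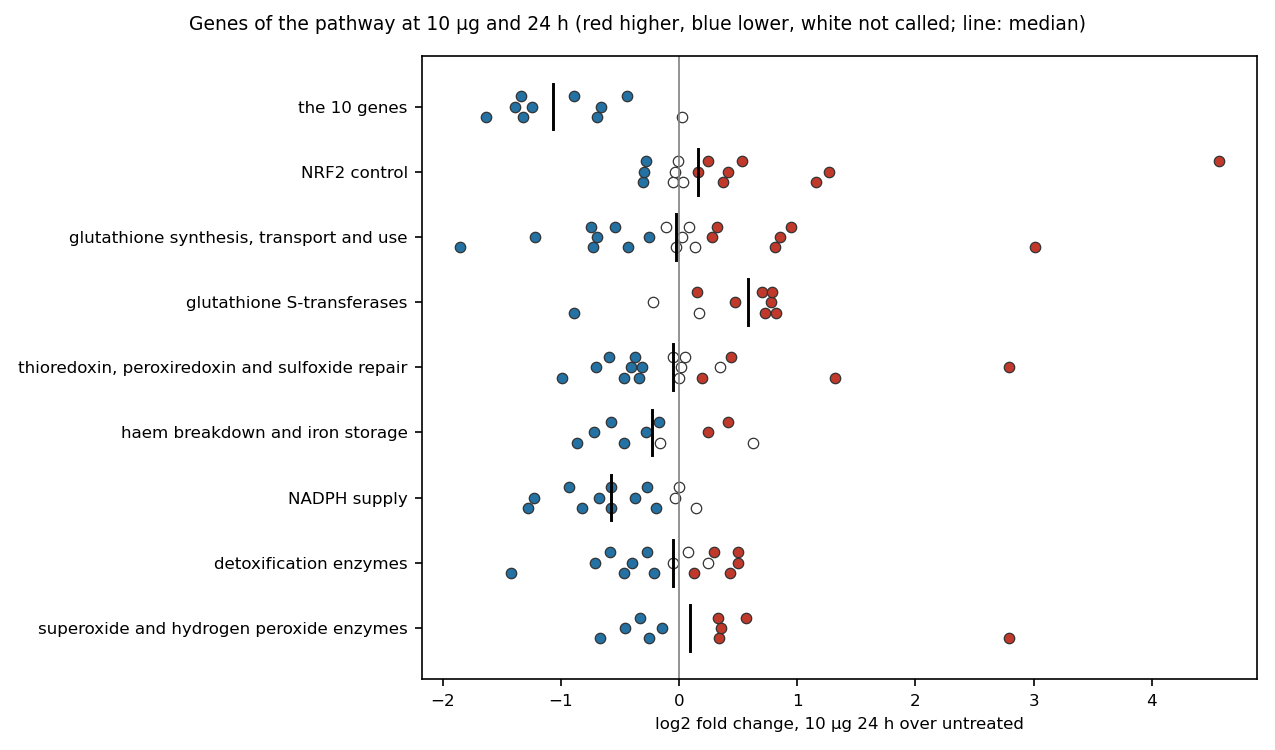
Log2 fold change at 10 µg and 24 h over untreated cells (horizontal axis) for the 10 genes and the tested genes of each list, with 1 point per gene, red for higher, blue for lower and white for not called, and a line at the median. The medians of the lists run from -0.58 for NADPH supply to 0.59 for glutathione S-transferases, and the line for the 10 genes is at -1.07 with Nqo1 included and would be at -0.89 without it.

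At 10 µg and 6 h, when no member was called, 6 of the 109 partner genes were, 4 higher and 2 lower. That is 5.5%, close to the 5.95% of all tested genes called there, so the count says nothing particular of these lists, and the genes are given as single values. Sod2, mitochondrial superoxide dismutase and a known NF-κB target, averaged 141 ± 1.58 CPM at 10 µg and 6 h against 109 ± 6.22 CPM in untreated cells, log2 0.37 ± 0.05 (adjusted p = 5.32e-05). Sqstm1 averaged 926 ± 30.8 CPM at 10 µg and 6 h against 728 ± 28.9 CPM in untreated cells, log2 0.35 ± 0.06 (adjusted p = 0.00133). Mafk, a small MAF partner of NRF2, and Cybb, the catalytic subunit of the NADPH oxidase, were higher by 0.23 ± 0.05 (adjusted p = 0.00796) and 0.20 ± 0.06 (adjusted p = 0.0345). Txnip and the aldehyde dehydrogenase Aldh9a1 were lower by 0.22 ± 0.06 (adjusted p = 0.0302) and 0.19 ± 0.05 (adjusted p = 0.0181). The Mafk, Cybb, Txnip and Aldh9a1 calls were each lost without at least 1 library. At 1 µg and 6 h 0 partners were called.

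The genes most like each member were sought by the root mean square difference of their 4 log2 changes from untreated cells, as a description with no test. The search covered 9812 tested genes of at least 5 CPM on average, without symbols of predicted genes, clones or mitochondrially encoded genes. Nfe2l2 was left out, since it did not reach a log2 change of 0.5 in any of the 4. Gclm was followed most closely, by Agpat5, a lipid acyltransferase (difference 0.0131), then Dnajc3, an endoplasmic reticulum co-chaperone, and Ddx18, a nucleolar helicase. Gclc was nearest to Dctpp1, Lyar and Syce2, and Gsr to Kpnb1, the nuclear import receptor, Hspa8, the constitutive HSP70 chaperone, and Lyar, a nucleolar protein. Txnrd1 was nearest to Gcsh, of the glycine cleavage system (0.0279), then Hsd17b7 and Hsph1, and Srxn1 to the chaperone Hsph1, Nmbr and Skil. Prdx1 was nearest to Specc1, Spcs3 and Srsf3, and Keap1 to Smdt1, Thada and Ptpa. Hmox1, with its smaller fall at 10 µg, was nearest to Tmem268 (0.0279), then Actn1 and Angpt2. Nqo1 had no close match, its nearest gene being Adamts3 at 0.43. The 10 members were left out of the search, so it does not show how alike they are to each other. Apart from Nqo1, the differences are smaller than the SE of the member's own log2 changes, so the order of neighbours is not firm. The search was not repeated without the first 1 µg 24 h library, which moves the Srxn1 change at 1 µg and 24 h from -1.22 to -1.53.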

How the data were processed

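RNA of RAW264.7 cells was extracted with TRIzol and RNeasy, and stranded mRNA libraries were made with a TruSeq kit, per the labels' protocols. The authors deposited raw counts per gene symbol, whole numbers that are not normalized, in 1 table of 15 libraries. The build was GRCm39, per the submitters' processing notes, and the sources used here name no aligner, counter, annotation or strand setting. Columns were matched to samples by title.

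From the deposited counts, genes were kept by edgeR's filter (minimum count 10, 12401 of 25639 symbols, 99.97% of counts), scaled by TMM and fitted with edgeR 4.0.16 (quasi-likelihood test, R 4.3.3), with 1 mean per group and 10 residual degrees of freedom. P-values were two-sided and adjusted over all tested genes in each comparison, with a threshold of 0.05. DESeq2 1.42.0, limma-voom (limma 3.58.1), RLE scaling, no filter, only the groups compared, a replicate block, each library left out and, added after seeing the data, library totals alone were the alternatives. The steps were tested on simulated data for 10 µg 24 h against untreated cells, where 88 of 100 genes changed by log2 0.5 and 99 of 100 changed by log2 1 were called, with 13 false calls among 12037 unchanged genes, over 12401 genes. The simulation changed few genes, all above 5 CPM and in random directions. In the real contrast 34.9% of tested genes were called lower and 35.4% higher, so the simulated error rate does not carry over to it.

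All 10 members are named in every comparison, with up to 4 called genes of smallest p per partner list and comparison, from which the text takes those of the comparisons it describes, and the 3 nearest genes by likeness. The changes of Slc7a11, Gss and Fth1 from untreated cells at 24 h were named outside this rule, after their values were seen. The members and the lists were chosen with earlier results of these data known. Exon lengths, overlaps and copies come from GENCODE vM21, and promoters from RefSeq, both on GRCm38. No pair of libraries agreed within sampling noise. A floor of 3 counts and the tests cover the counting error and the spread of these libraries only. Some genes of the lists are counted but not reported by name here.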

Additional observations from a re-analysis of the deposited data

Results flagged for a closer look

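The test of whether the 10 µg over 1 µg difference itself differed between 24 h and 6 h called 22 of the genes named here, 2 members and 20 partners, by edgeR's quasi-likelihood test at an adjusted p under 0.05. The test called 18.6% of all tested genes, against 2 of the 10 members and 21 of the 109 partners (19.3%), so these shares are close to the background and the genes are given as single values. Values are the difference of the log2 dose change at 24 h from that at 6 h, and every library enters the fit. Of the members, Gclm had -0.303 (adjusted p = 0.00185), with a dose change of -0.29 at 24 h and 0.02 at 6 h, and Keap1 had -0.227 (adjusted p = 0.0352), with -0.26 at 24 h and -0.03 at 6 h.

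Among genes that control NRF2, the difference was 0.447 for Sqstm1 (adjusted p = 0.00121), 0.441 for Nfe2l1 (adjusted p = 0.00677) and 0.313 for Gsk3b (adjusted p = 0.00356). Among glutathione genes it was -1.1 for Glrx, a glutaredoxin (adjusted p = 0.00245), whose dose change was -0.87 at 24 h and 0.22 at 6 h, -0.422 for Gstcd (adjusted p = 0.00625) and -0.681 for Mgst2 (adjusted p = 0.014). In the thioredoxin list it was -0.27 for Txn1 (adjusted p = 0.0294), 0.298 for Txnip (adjusted p = 0.0152), 0.525 for Sesn2 (adjusted p = 0.0014) and 0.564 for the sulfoxide reductase Msrb1 (adjusted p = 0.000226). The Txn1 call was lost without any 1 of 7 libraries and the Txnip call without any 1 of 3.

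Fth1 had 0.474 (adjusted p = 6.16e-05), with a dose change of 0.53 at 24 h and 0.06 at 6 h, and Ncoa4 had 0.304 (adjusted p = 0.00341). Of NADPH genes, Pgd had -0.408 (adjusted p = 0.0109) and Nadk, which makes NADP from NAD, had -0.359 (adjusted p = 0.000469). The aldehyde dehydrogenases Aldh3a2 and Aldh3b1 had 0.333 (adjusted p = 0.0137) and 0.29 (adjusted p = 0.00792). Of superoxide genes, Sod2 had -0.267 (adjusted p = 0.0135), Cybb -0.496 (adjusted p = 8.58e-05), Ncf1 -0.364 (adjusted p = 0.00031) and Cyba 0.406 (adjusted p = 0.000834). Cybb was lower at 10 µg than at 1 µg at 24 h, by log2 -0.34, and differed by 0.16 at 6 h.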

How the results depend on the processing

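Of the member values under the alternatives, 1163 kept their direction and side of the threshold, 15 lost a call, 11 gained one and 36 changed sign. Of the named partner values, 2575 kept both, 51 lost a call and 3 changed sign, all 3 of Slc7a11 at 10 µg 24 h over untreated, which was never called, with 0.06533 under library totals and -0.0703 to 0.009734 with each library left out. The 9 members lower at 24 h against untreated cells were so with DESeq2, limma-voom and a replicate block, and the exceptions under single left-out libraries were those of Nqo1. With only the groups compared, 3 members were called at 10 µg and 6 h, 1 between doses at 6 h and 3 between doses at 24 h. With libraries scaled to totals alone Nfe2l2 came to 0.09389 at 1 µg 24 h over untreated and 0.0862 at 1 µg 24 h over 6 h. Srxn1 between doses at 6 h was -0.0003211 with RLE scaling, -0.0003087 with DESeq2 and -0.002788 with totals. The cause was not tested. Over all tested genes, 738 were called at 10 µg 6 h against untreated cells, 1487 with only the groups compared and 390 to 469 without single libraries. Between doses at 6 h the counts were 291, 1044 and 111 to 163. At 1 µg 6 h 1 gene was called with no filter, against 0. Partner list counts moved by over 1.5 times in 27 of 104 settings at 10 µg 6 h, 16 of 104 between doses at 6 h, 3 of 104 between doses at 24 h, 15 of 152 in the dose by time test and 0 in the other comparisons.

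With each library left out in turn, values at 1 µg 6 h over untreated ran from -0.006622 to 0.02748 for Nfe2l2, -0.004183 to 0.0536 for Gclc, -0.04264 to 0.01822 for Gclm, -0.03221 to 0.04095 for Srxn1, -0.002338 to 0.07458 for Prdx1 and -0.04484 to 0.08198 for Hmox1. At 10 µg 6 h over untreated they ran from -0.02927 to 0.03159 for Gclm and -0.02633 to 0.04681 for Srxn1. Nfe2l2 ran from -0.03703 to 0.01887 at 1 µg 24 h over untreated and -0.04707 to 0.01046 over 6 h. Between doses at 6 h they ran from -0.004819 to 0.02703 for Srxn1, -0.01457 to 0.0442 for Prdx1 and -0.6625 to 0.3123 for Nqo1. Between doses at 24 h they ran from -0.2505 to 0.01466 for Txnrd1, which was called without the third 1 µg library, -0.2797 to 0.1842 for Srxn1, -0.1839 to 0.01935 for Prdx1 and -0.9445 to 0.4843 for Nqo1. For the dose by time test they ran from -0.2875 to 0.1764 for Srxn1, -0.2018 to 0.0005939 for Prdx1 and -0.6551 to 0.7733 for Nqo1, and 1 to 5 members were called, 5 of them without the third 1 µg 24 h library.

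The replicate numbers are shared by all groups, and whether they pair the libraries is not settled. The deviations of 30 same-numbered pairs correlated only weakly, at -0.08 to 0.10, none over 0.1. Yet 10 of 15 libraries correlated best with a library of their own number, although most libraries of other groups bear a different one. The fit with the replicate number as a block called 9 members at 10 µg 24 h, 9 at 1 µg 24 h, 0 at either dose at 6 h, 5 between doses at 24 h and 2 in the dose by time test. Depth limits Nqo1, and Srxn1 had the widest intervals of the other members.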
